A study of Mus musculus with 15 samples.

Results

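Semaphorins are secreted or membrane-bound guidance proteins, first known from growing axons, that signal through plexins, with neuropilins as co-receptors of the secreted class. Ephrins are ligands tethered to the membrane that bind Eph receptor tyrosine kinases, and signal passes into the ephrin-bearing cell as well as into the receptor-bearing cell. In bone, SEMA4D made by osteoclasts restrains osteoblasts through plexin-B1, SEMA3A acts through neuropilin-1 to restrain osteoclast formation, plexin-A1 works with TREM2 and the adaptor DAP12 in osteoclast precursors, and ephrin-B2 on osteoclasts pairs with EphB4 on osteoblasts. The genes of these 5 families were followed here in mouse bone marrow derived macrophages (BMDMs) given RANKL, the cytokine that drives macrophages toward osteoclasts, or LPS, the bacterial cell wall component that drives inflammatory activation.

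The members were chosen by name and by level: 53 listed genes carry a Sema, Plxn, Nrp, Efn or Eph symbol, and the 32 with a mean of at least 0.1 FPKM over the 15 samples were kept, of 11743 genes past that minimum and 20089 listed. FPKM are fragments per kilobase of transcript, scaled to the mapped fragments of the library, so levels can be compared between genes. The kept members were 12 of 20 semaphorins, 8 of 9 plexins, both neuropilins, 5 of 8 ephrins and 5 of 14 Eph receptors. Of the 21 names below the minimum, 2 were listed at 0 in all 15 samples. Nearest below it were Sema3g (mean 0.0846 FPKM) and Sema3b (0.0754), and nearest above it Ephb6 (0.102) and Sema3a (0.106). Since the mean chose the members, 6 of them (Efna4, Epha4, Ephb3, Ephb6, Sema3a and Sema6c) passed through the group where they were highest and would have missed the minimum without it, so counts are also given for the other 26.

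The cells came from wild-type C57BL/6 mice and were grown in M-CSF, the macrophage growth factor, which all 5 groups received. The control group had M-CSF without another stimulus, and the other groups had RANKL for 4 h, RANKL for 72 h (3 days in the labels), LPS for 4 h or LPS for 72 h, with 3 samples in each. The labels number the samples but do not say whether the 3 came from separate mice or cultures, so p-values measure the spread between these samples, which may be technical. No control cultured for the 72 h of the longer treatments was among the samples, so stimulus and time in culture cannot be told apart in the 72 h comparisons with control.

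Each library held 18306184 to 20330207 fragments on listed genes. Macrophage markers were present in every library (7 genes, summed FPKM 5357 to 17150), and 9 of 10 osteoclast markers rose in RANKL 72 h and 10 of 10 LPS response genes rose in LPS 4 h. Other cell types were present in varying amounts. The summed FPKM of 18 stromal cell and fibroblast genes was 201.1 to 446.6 in control, 2348, 1120 and 545 in RANKL 72 h replicates 1, 2 and 3, and 142, 154 and 629.7 in the LPS 72 h replicates. That of 8 neutrophil and progenitor genes was 4759 to 14200 in control, 3969 to 12360 in the 4 h groups, 999 to 4150 in RANKL 72 h and 119 to 1115 in LPS 72 h. B cell genes (5 genes) summed to 16.2 to 20.9 in control and 0.497 to 7.25 at 72 h, and basophil and mast cell genes (4 genes) to 22.8 to 65 and 0.473 to 6.15. Over the 15 libraries, endothelial genes (8 genes) summed to 3.49 to 22.9, T and NK cell genes (5 genes) to 1.98 to 19.6 and dendritic cell genes (4 genes) to 0.264 to 22.5 FPKM. LPS 72 h replicate 3 stood apart from the other LPS 72 h libraries in its stromal and neutrophil sums and in its macrophage sum (5797, 7629 and 17150). The part of these cell types in the results below was not tested, and in bulk samples fewer cells of a type and less RNA per cell cannot be told apart.

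The 32 members spanned a wide range of levels. The 7 with a mean of at least 10 FPKM were Plxnb2 (85.0), Nrp2 (65.2), Plxna1 (53.3), Sema4d (50.1), Plxnd1 (46.1), Nrp1 (37.9) and Sema4a (14.3), and 16 members were below 1 FPKM. Plexins and neuropilins hence made up most of this list, with the class 4 semaphorins Sema4d and Sema4a as its only ligands. Plexins summed to 174 ± 32 FPKM (SD, n = 3) in control, neuropilins to 97.9 ± 18.6 and semaphorins to 76.6 ± 11.1, against 2.38 ± 0.708 for ephrins and 1.65 ± 0.33 for Eph receptors. The fragments behind these values show how firm each is: the 3 control samples held 5349, 6743 and 5806 fragments on Nrp2, 84, 73 and 84 on Plxna4, 21, 15 and 13 on Sema3a and 2, 1 and 5 on Epha4. In RANKL 72 h the sums were 305 ± 34.7 for plexins, 142 ± 14.4 for neuropilins, 113 ± 11.5 for semaphorins, 7.67 ± 2.92 for ephrins and 2.74 ± 0.838 for Eph receptors.

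Differences between groups were tested with limma on log2(FPKM + 0.1), a scale that understates the change of low genes, and a gene was called at a Benjamini-Hochberg adjusted p under 0.05 over all genes tested and a fold change above 1.5 or below 0.66. In RANKL 72 h 15 of 32 members were higher than in control, against 16.6% of all genes tested. In LPS 4 h 5 members were higher and 9 lower, against 8.43% and 39.7% of all genes. The 9 included 5 of 8 plexins, none of them called lower relative to the median gene. No member was called in RANKL 4 h, where 0.111% of all genes were called higher.

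**Figure D1:**
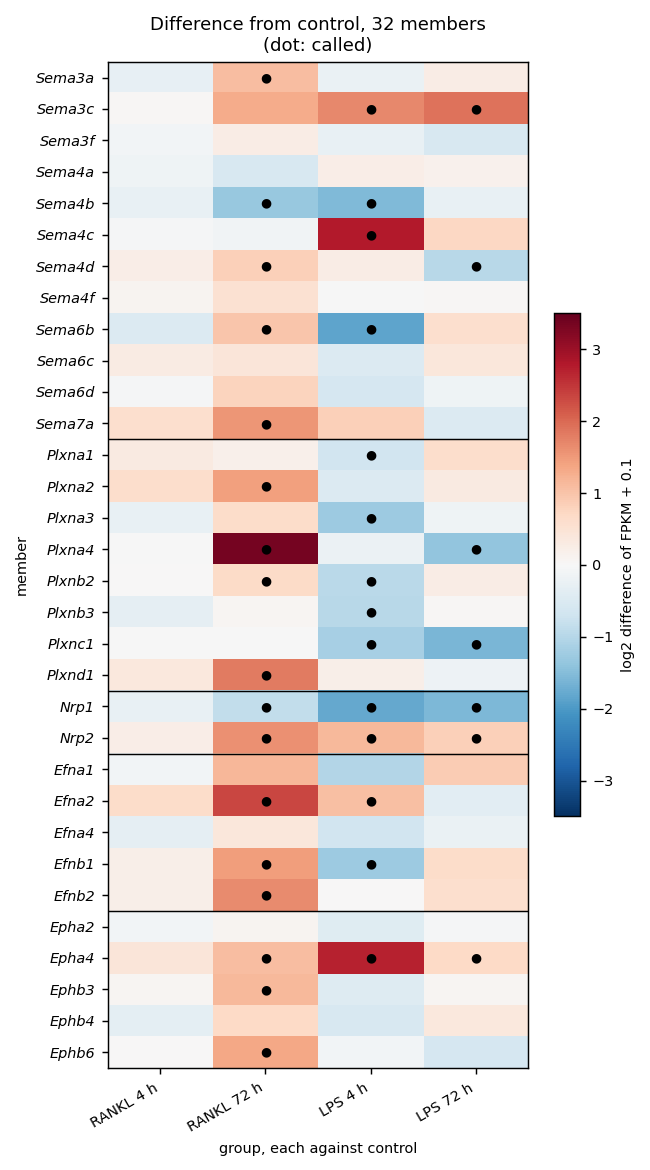
Difference of each of the 32 members (rows, by family) from control in the 4 stimulated groups (columns), as the log2 difference of FPKM + 0.1, red for higher and blue for lower, with a dot on called differences. RANKL 72 h holds 15 dots on higher and 2 on lower members, LPS 4 h holds 5 and 9, LPS 72 h holds 3 and 4, and RANKL 4 h holds none.

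After 72 h of RANKL, 15 of the 32 members were called higher and 2 lower, against 16.6% of all genes tested called higher and 7.54% lower. The 15 were 4 of 12 semaphorins (Sema3a, Sema4d, Sema6b and Sema7a), 4 of 8 plexins (Plxna2, Plxna4, Plxnb2 and Plxnd1), Nrp2, 3 of 5 ephrins (Efna2, Efnb1 and Efnb2) and 3 of 5 Eph receptors (Epha4, Ephb3 and Ephb6). Those that fell were Nrp1 and Sema4b. Among the 26 members past the minimum without their highest group, 11 were higher and 2 lower. The 3 Eph receptors and Sema3a are not among these 26, and the other Eph receptors, Epha2 and Ephb4, were not called. The median difference of the 32 was 0.80 on the log2 scale, beside 0.16 for the median gene tested. When differences were taken relative to the median gene of each sample (centring), 14 members were higher and 3 lower, where 9.94% and 12.2% of all genes were: Plxnb2 lost its call (0.45, adjusted p = 0.178) and Sema4a was then lower (-0.79, adjusted p = 0.0285). With the replicate number as a block, Efna1 (adjusted p = 0.0448) and Sema3c (adjusted p = 0.0289) were called higher as well.

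Among the plexins, which take up semaphorin signals and act on small GTPases through a GAP domain in the cell, Plxna4 and Plxnd1 stood out under RANKL. Plxna4 (GRCm38 chr6:32144268-32588192, minus strand) encodes a plexin that pairs with neuropilins for class 3 semaphorins and binds class 6 semaphorins directly. It was at 0.31, 0.272 and 0.333 FPKM in control, 0.311, 0.239 and 0.364 in RANKL 4 h and 3.73, 2.22 and 7.85 in RANKL 72 h. It was at 0.217, 0.307 and 0.243 in LPS 4 h and, after 72 h, at 0.0596, 0.0732 and 0.0358. Every RANKL 72 h sample lay above every other sample and every LPS 72 h sample below, although the RANKL 72 h values themselves spread widely, with replicate 3 highest. It rose by 3.35 ± 0.34 (SE) on the log2 scale, adjusted p = 1.96e-05, in RANKL 72 h. Plxna4 fell by 1.38 ± 0.34 (SE) on the log2 scale, adjusted p = 0.00712, in LPS 72 h, where with a pseudocount of 1 it was no longer called. The antisense transcripts (Plxna4os1, Plxna4os2 and Plxna4os3) lie opposite this gene on the plus strand, and whether the counting used strand is not given in the sources used here. In all, 9 of the 32 members have an annotated gene on the other strand.

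Plxnd1 (chr6:115954811-115995005, minus strand), the receptor of SEMA3E and a partner of SEMA4A and SEMA4C, was at 23.8, 30.1 and 33.2 FPKM in control and 97.4, 81.7 and 134 in RANKL 72 h. It stood at 32.6, 46.1 and 34.9 in RANKL 4 h, 26.4, 39.5 and 34.8 in LPS 4 h and 22.6, 28.4 and 25.2 in LPS 72 h. The RANKL 72 h samples alone lay above all others, and Plxnd1 there rose by 1.83 ± 0.20 (SE) on the log2 scale, adjusted p = 4.02e-05. In LPS 4 h its difference was 0.20 ± 0.20 (SE), adjusted p = 0.416, and it was called higher there once samples were centred on the median gene (0.77, adjusted p = 0.00723). Plxnd1 made up 16.8 ± 1.13% (SD, n = 3) of the summed plexin FPKM in control, 33.9 ± 4.81% in RANKL 72 h, 29.9 ± 1.49% in LPS 4 h and 12.6 ± 0.787% after 72 h of LPS. The LPS 72 h shares lay below, and those of RANKL 72 h and LPS 4 h above, every control share (exact permutation test, two-sided, p = 0.1 in each, which is the least that 3 samples against 3 can give).

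Plxna2, a receptor for class 6 semaphorins, was at 0.779, 0.734 and 1.42 FPKM in control and 2.66, 2.16 and 3.46 in RANKL 72 h, and rose by 1.44 ± 0.38 (SE) on the log2 scale, adjusted p = 0.011. It was at 1.11, 1.3 and 2.23 in RANKL 4 h, 0.498, 0.641 and 0.835 in LPS 4 h and 1.61, 1.68 and 0.611 in LPS 72 h, with no call against control in these 3. Plxnb2, a receptor of class 4 semaphorins and the member with the highest mean, was at 65.8, 101 and 74.1 in control, 60.4, 103 and 82.8 in RANKL 4 h and 119, 124 and 132 in RANKL 72 h. Its RANKL 72 h values exceeded all control values, yet the call was narrow: it rose by 0.67 ± 0.24 (SE) on the log2 scale, adjusted p = 0.0482, and the call was lost without Control replicate 1, Control replicate 3, RANKL 4 h replicate 3, RANKL 72 h replicate 1, RANKL 72 h replicate 2, RANKL 72 h replicate 3, LPS 4 h replicate 3, LPS 72 h replicate 1 or LPS 72 h replicate 2 (adjusted p 0.055 to 0.174), and also with a pseudocount of 0.01, no filter, no trend or limma voom. In LPS 4 h Plxnb2 was at 30.1, 57.3 and 39.6 and fell by 0.95 ± 0.24 (SE) on the log2 scale, adjusted p = 0.00371, and in LPS 72 h it was at 85.3, 85.5 and 114, where 2 of the 3 samples lay within the control range.

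Plxna1 was called against control in LPS 4 h alone, and Plxnc1 in both LPS groups. Plxna1, the partner of TREM2 and DAP12, was at 35.7, 48 and 61.8 FPKM in control, 40.3, 62.3 and 79.8 in RANKL 4 h and 54.1, 53.1 and 53.7 in RANKL 72 h. It was at 21.8, 32.8 and 35.6 in LPS 4 h and, after 72 h, at 68, 90.2 and 62.4. It fell by 0.68 ± 0.26 (SE) on the log2 scale, adjusted p = 0.0334, in LPS 4 h, a call lost without Control replicate 2, Control replicate 3 or LPS 4 h replicate 1 (adjusted p 0.0738 to 0.152) and lost on centring (-0.12, adjusted p = 0.735) or with samples rescaled to equal FPKM sums. In LPS 72 h every sample lay above every control sample, with a difference of 0.62 ± 0.26 (SE), adjusted p = 0.0759, and in RANKL 72 h the difference was 0.18 ± 0.26 (SE), adjusted p = 0.618. Plxnc1, the receptor of SEMA7A, was at 9.03, 12.5 and 17.9 in control, 9.66, 13 and 15.4 in RANKL 4 h and 15.8, 11.6 and 10.8 in RANKL 72 h, with overlapping ranges. It was at 4.17, 6.64 and 6.46 in LPS 4 h and 2.92, 3.76 and 6.23 in LPS 72 h, below every control sample in both. It fell by 1.15 ± 0.30 (SE) on the log2 scale, adjusted p = 0.00505, at 4 h. Plxnc1 fell by 1.60 ± 0.30 (SE) on the log2 scale, adjusted p = 0.00125, at 72 h. The 4 h call was lost on centring (-0.59, adjusted p = 0.15) and the 72 h call was kept (-1.69, adjusted p = 0.000973).

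The 2 low plexins were called against control in LPS 4 h alone. Plxna3 had a control mean of 0.497 and an LPS 4 h mean of 0.149 FPKM and fell by 1.26 ± 0.30 (SE) on the log2 scale, adjusted p = 0.00277. Plxnb3 had means of 0.804 and 0.371 and fell by 0.96 ± 0.32 (SE) on the log2 scale, adjusted p = 0.0201, a call lost without Control replicate 1, Control replicate 2, LPS 4 h replicate 1 or LPS 4 h replicate 3 (adjusted p 0.0599 to 0.0725). Both lost the call with a pseudocount of 1 and on centring.

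**Figure D2:**
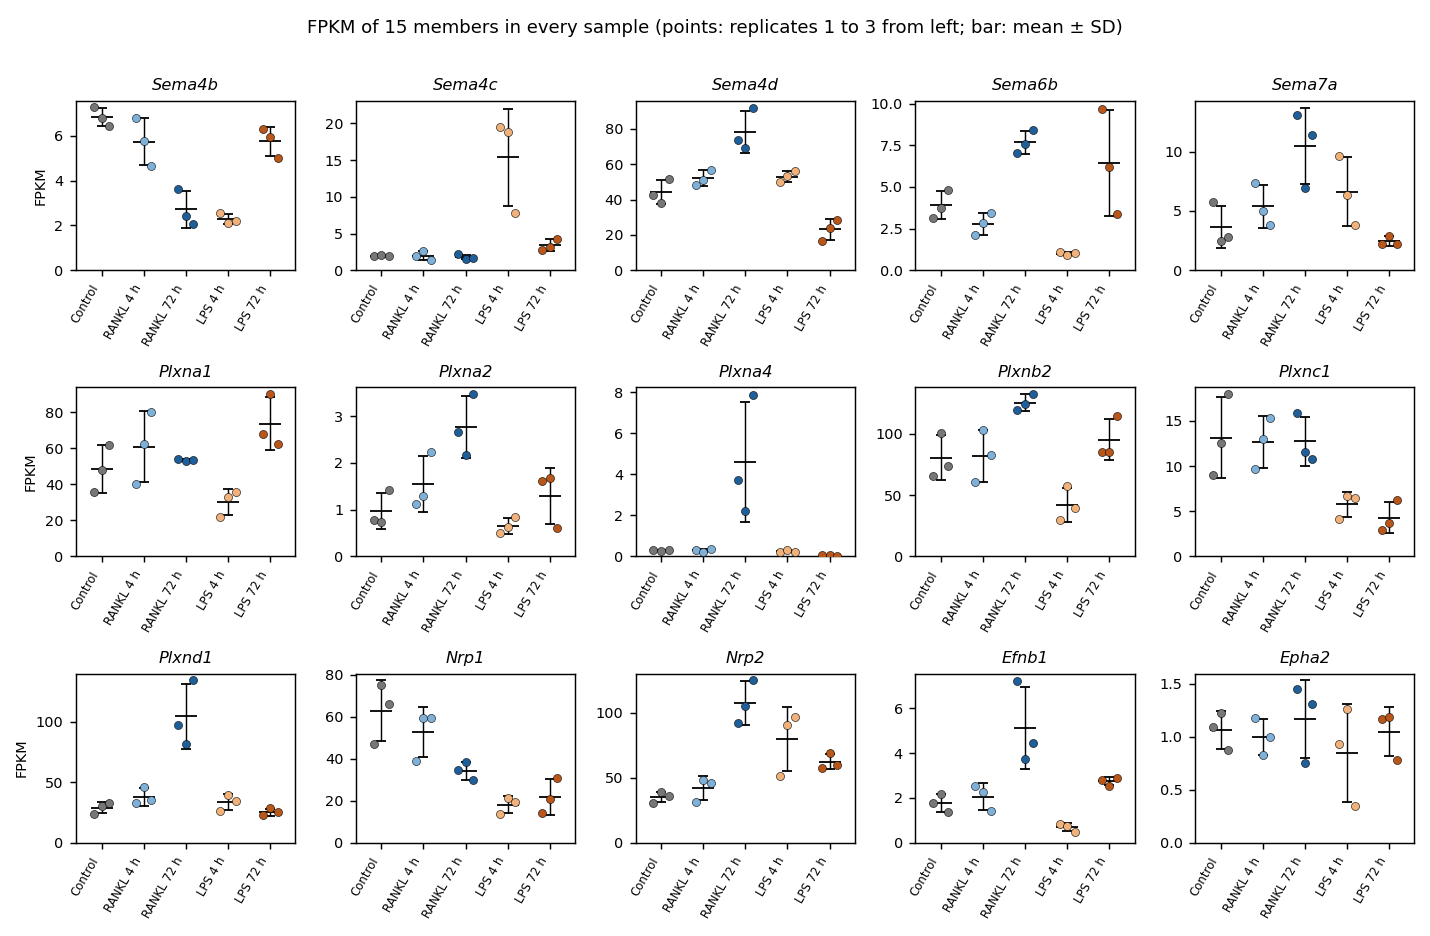
FPKM (vertical axes, each from 0) of 15 members in the 5 groups (horizontal axes), with each sample as a point, replicates 1 to 3 from left to right, and the mean ± SD as a bar. Plxna4 reached 2.22 to 7.85 FPKM in RANKL 72 h and at most 0.364 elsewhere, and Sema4c 7.75 to 19.6 in LPS 4 h and at most 4.30 elsewhere.

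The neuropilins, co-receptors that give class 3 semaphorins their binding site and also bind VEGF, moved in opposite directions. Nrp1 (chr8:128358604-128503363, plus strand), the SEMA3A co-receptor, was at 46.9, 75.2 and 66.2 FPKM in control, 38.9, 59.4 and 59.4 in RANKL 4 h and 34.5, 38.4 and 29.8 in RANKL 72 h. It was at 13.7, 21.2 and 19.3 in LPS 4 h and 14, 20.6 and 30.6 in LPS 72 h. All samples of these last 3 groups were below all control samples. Nrp1 fell by 0.85 ± 0.27 (SE) on the log2 scale, adjusted p = 0.0295, in RANKL 72 h. Nrp1 fell by 1.79 ± 0.27 (SE) on the log2 scale, adjusted p = 8.82e-05, in LPS 4 h. Nrp1 fell by 1.57 ± 0.27 (SE) on the log2 scale, adjusted p = 0.000658, in LPS 72 h. The RANKL call was lost with samples rescaled to equal FPKM sums and without Control replicate 2, Control replicate 3, RANKL 72 h replicate 1 or RANKL 72 h replicate 3 (adjusted p 0.0628 to 0.105), and both LPS calls were kept under every library left out.

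Nrp2 (chr1:62703285-62818695, plus strand), which prefers SEMA3F among the class 3 ligands, was at 30.7, 38.9 and 35.7 FPKM in control and 31.1, 48.2 and 45.8 in RANKL 4 h. It was at 91.9, 105 and 125 in RANKL 72 h, 51.4, 90.4 and 96.8 in LPS 4 h and 57.7, 69.2 and 60 in LPS 72 h. The samples of these 3 groups were all above all control samples. Nrp2 rose by 1.61 ± 0.23 (SE) on the log2 scale, adjusted p = 0.000209, in RANKL 72 h. Nrp2 rose by 1.13 ± 0.23 (SE) on the log2 scale, adjusted p = 0.000728, in LPS 4 h. Nrp2 rose by 0.83 ± 0.23 (SE) on the log2 scale, adjusted p = 0.0117, in LPS 72 h, and no library left out or other setting removed any of these calls. An antisense transcript, Gm29083, lies opposite it.

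The ratio of the 2 neuropilins within a sample does not depend on how samples were scaled. The log2 ratio of Nrp2 to Nrp1 was -0.613, -0.949 and -0.89 in control and -0.323, -0.302 and -0.376 in RANKL 4 h. It was 1.41, 1.46 and 2.07 in RANKL 72 h, 1.9, 2.09 and 2.33 in LPS 4 h and 2.05, 1.75 and 0.973 in LPS 72 h. Nrp1 was thus the more abundant neuropilin in all 6 control and RANKL 4 h samples and Nrp2 in all 9 others, and each stimulated group lay above control without overlap (two-sided exact permutation test of 3 samples against 3, p = 0.1 in each of 4 comparisons, the smallest this design allows). The ratio was chosen after the values had been seen.

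**Figure D3:**
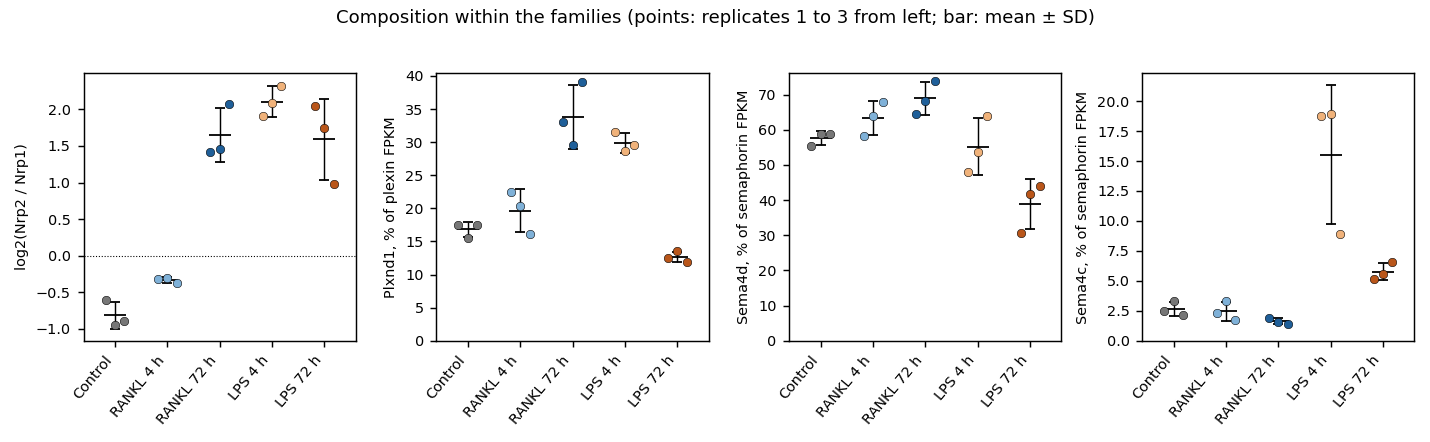
Log2 ratio of Nrp2 to Nrp1 and the percent of the summed FPKM of a family taken by Plxnd1, Sema4d and Sema4c (vertical axes) in the 5 groups (horizontal axes), with each sample as a point, replicates 1 to 3 from left to right, and the mean ± SD as a bar. The ratio is below 0 in control and RANKL 4 h and above 0 in the other groups, and Plxnd1 takes 29.5 to 39.0% of plexin FPKM in RANKL 72 h against 15.5 to 17.5% in control.

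The proximal promoters of Plxnd1, Nrp2 and Sema4c are shown as examples, Plxnd1 being called higher in RANKL 72 h, Sema4c in LPS 4 h and Nrp2 in both of these and in LPS 72 h. The sequences are from RefSeq (GRCm38.p6), written 5′ to 3′ on the gene's strand and ending at or before the annotated start. They lie at chr6:115995006-115995255 (minus strand), chr1:62703067-62703284 (plus strand) and chr1:36558382-36558631 (minus strand). Capitals mark matches, on either strand, to GAGGAAG (PU.1, a factor of the macrophage lineage), TGANTCA (AP-1), CACGTG (an E-box, the site of MITF and USF factors) or the NF-kappaB consensus.
Plxnd1: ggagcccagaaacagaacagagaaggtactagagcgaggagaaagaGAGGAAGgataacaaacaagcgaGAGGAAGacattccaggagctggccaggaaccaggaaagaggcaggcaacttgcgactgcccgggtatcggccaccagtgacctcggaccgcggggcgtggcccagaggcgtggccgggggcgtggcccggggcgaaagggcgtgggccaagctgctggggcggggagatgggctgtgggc
Nrp2: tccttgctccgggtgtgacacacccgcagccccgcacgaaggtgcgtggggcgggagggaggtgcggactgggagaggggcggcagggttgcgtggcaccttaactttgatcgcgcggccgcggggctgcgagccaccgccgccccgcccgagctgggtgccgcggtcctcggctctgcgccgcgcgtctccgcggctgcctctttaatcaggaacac
Sema4c: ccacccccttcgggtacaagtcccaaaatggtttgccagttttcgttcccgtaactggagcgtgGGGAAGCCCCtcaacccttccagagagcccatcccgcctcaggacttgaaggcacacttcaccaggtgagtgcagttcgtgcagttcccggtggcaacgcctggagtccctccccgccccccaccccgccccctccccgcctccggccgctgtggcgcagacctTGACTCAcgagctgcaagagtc
The Plxnd1 window holds 2 GAGGAAG matches, the Sema4c window an AP-1 match close to the start and an NF-kappaB match farther out, and the Nrp2 window none of the 4. Sequences upstream of Sema4d, Sema6b and Sema7a, also called higher in RANKL 72 h, were taken too and are not shown. They held no match, although Sema4d and Sema6b held matches in the windows counted next. In windows of 300 bases around each annotated start, a match to AP-1 was found in 7.81% of all 32851 windows, to the E-box in 7.15%, to GAGGAAG in 13.6% and to the NF-kappaB consensus in 4.51%. Of the 29 members with a window, 3, 2, 9 and 5 held each of these in at least 1 of their windows. Of the 14 members with a window that were higher in RANKL 72 h, 2 held AP-1, 0 the E-box, 2 GAGGAAG and 1 the NF-kappaB consensus. The 29 members have 41 windows, of which 10 held GAGGAAG, and Plxna1, Plxna4 and Sema3f have none. No matches overlap in the sequences shown, and a match is a run of letters, not a measured site.

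Among the semaphorins, the class 4 genes, which encode membrane-bound ligands, differed in which groups they were higher or lower. Sema4d (chr13:51685529-51793747, minus strand, with Gm23566 opposite it), the osteoclast ligand of plexin-B1, was at 42.8, 38.3 and 51.4 FPKM in control and 48.2, 51.2 and 56.9 in RANKL 4 h. It was at 73.7, 69.2 and 91.8 in RANKL 72 h, 50, 53.1 and 55.9 in LPS 4 h and 16.6, 23.9 and 28.7 in LPS 72 h. The RANKL 72 h samples lay above and the LPS 72 h samples below every control sample. Sema4d rose by 0.82 ± 0.18 (SE) on the log2 scale, adjusted p = 0.00388, in RANKL 72 h. Sema4d fell by 0.96 ± 0.18 (SE) on the log2 scale, adjusted p = 0.00108, in LPS 72 h. In LPS 4 h its difference was 0.27 ± 0.18 (SE), adjusted p = 0.203, and it was called higher once samples were centred (0.84, adjusted p = 0.00452). It made up 57.7 ± 2.1% (SD, n = 3) of the semaphorin FPKM in control, 68.9 ± 4.69% in RANKL 72 h and 38.8 ± 7.13% in LPS 72 h.

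Sema4c (chr1:36548639-36558349, minus strand), a plexin-B2 ligand, was at 1.93, 2.15 and 1.89 FPKM in control, 1.91, 2.64 and 1.42 in RANKL 4 h and 2.16, 1.59 and 1.72 in RANKL 72 h. It was at 19.6, 18.8 and 7.75 in LPS 4 h and 2.8, 3.17 and 4.3 in LPS 72 h. The LPS 4 h samples were above all others, replicate 3 being the lowest of them, and Sema4c rose by 2.78 ± 0.32 (SE) on the log2 scale, adjusted p = 7.85e-06. The 72 h samples were also above every control sample, but the difference of 0.73 ± 0.32 (SE), adjusted p = 0.0845, was not called. D430040D24Rik lies opposite it. Sema4c took 2.65 ± 0.582% (SD, n = 3) of the semaphorin FPKM in control and 15.5 ± 5.78% in LPS 4 h.

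Sema4b was at 7.27, 6.79 and 6.45 FPKM in control, 6.79, 5.76 and 4.67 in RANKL 4 h and 3.65, 2.42 and 2.08 in RANKL 72 h. It was at 2.54, 2.13 and 2.19 in LPS 4 h and 6.29, 5.94 and 5.01 in LPS 72 h. The samples of RANKL 72 h, LPS 4 h and LPS 72 h all lay below every control sample, by least in LPS 72 h, where the difference of -0.25 ± 0.20 (SE), adjusted p = 0.345, was not called. It fell by 1.34 ± 0.20 (SE) on the log2 scale, adjusted p = 0.000306, in RANKL 72 h. Sema4b fell by 1.54 ± 0.20 (SE) on the log2 scale, adjusted p = 2.3e-05, in LPS 4 h, and both calls were kept on centring and under every library left out. Sema4a, a ligand of plexin-D1 and plexin-B receptors, was called against control in no group, with means of 14.9 FPKM in control, 9.9 in RANKL 72 h and 17.3 in LPS 4 h. Its difference was -0.57 ± 0.24 (SE), adjusted p = 0.079, in RANKL 72 h, and 0.24 ± 0.24 (SE), adjusted p = 0.388, in LPS 4 h, and on centring it was called lower in the first (-0.79, adjusted p = 0.0285) and higher in the second (0.81, adjusted p = 0.0194).

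Sema7a, the semaphorin anchored to the membrane by a lipid, which binds plexin-C1 and integrins, was at 5.72, 2.5 and 2.77 FPKM in control and 7.37, 4.98 and 3.8 in RANKL 4 h. It was at 13.1, 6.9 and 11.4 in RANKL 72 h, 9.66, 6.35 and 3.84 in LPS 4 h and 2.22, 2.92 and 2.17 in LPS 72 h. Within control, both 4 h groups and RANKL 72 h, replicate 1 held the highest value. Sema7a rose by 1.54 ± 0.37 (SE) on the log2 scale, adjusted p = 0.00756, in RANKL 72 h. Its difference in LPS 4 h was 0.84 ± 0.37 (SE), adjusted p = 0.0671, and was called with the replicate number as a block (adjusted p = 0.0228) and on centring (1.41, adjusted p = 0.0117).

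Sema6b, a transmembrane ligand of plexin-A receptors, was at 3.15, 3.76 and 4.81 FPKM in control, 2.1, 2.85 and 3.43 in RANKL 4 h and 7.04, 7.58 and 8.4 in RANKL 72 h. It was at 1.09, 0.908 and 1.02 in LPS 4 h and 9.7, 6.2 and 3.37 in LPS 72 h, where the 3 samples spread widely. It fell by 1.84 ± 0.30 (SE) on the log2 scale, adjusted p = 0.000159, in LPS 4 h. Sema6b rose by 0.97 ± 0.30 (SE) on the log2 scale, adjusted p = 0.0259, in RANKL 72 h, the latter call being lost without Control replicate 1, Control replicate 2, RANKL 72 h replicate 2 or RANKL 72 h replicate 3 (adjusted p 0.059 to 0.101).

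The secreted class 3 ligands were low throughout. Sema3c had means of 0.0955 FPKM in control, 0.576 in LPS 4 h and 0.659 in LPS 72 h. It rose by 1.70 ± 0.50 (SE) on the log2 scale, adjusted p = 0.00959, in LPS 4 h. Sema3c rose by 1.90 ± 0.50 (SE) on the log2 scale, adjusted p = 0.00941, in LPS 72 h. Each call was lost without the library highest in its group, LPS 4 h replicate 3 (adjusted p 0.0549) and LPS 72 h replicate 2 (adjusted p 0.0516), and both were lost with a pseudocount of 1. Sema3a, the NRP1 ligand, had a mean of 0.0696 in control and was at 0.357, 0.244 and 0.186 in RANKL 72 h, from 78, 56 and 42 fragments. Gm42680 lies opposite it. It rose by 1.07 ± 0.29 (SE) on the log2 scale, adjusted p = 0.0132, a call lost without RANKL 72 h replicate 1 (adjusted p 0.0508). Sema3f, the NRP2 ligand, was called in no comparison with control (mean 0.201 FPKM), as were Sema4f (0.147), Sema6c (0.109) and Sema6d (0.625), the last with a difference in RANKL 72 h of 0.79 ± 0.32 (SE), adjusted p = 0.0798.

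Among the ephrins, which act on Eph receptors of neighbouring cells, Efnb1 was the most abundant. It was at 1.77, 2.18 and 1.35 FPKM in control, 2.51, 2.27 and 1.4 in RANKL 4 h and 7.22, 3.75 and 4.47 in RANKL 72 h. It was at 0.813, 0.749 and 0.477 in LPS 4 h and 2.81, 2.54 and 2.91 in LPS 72 h. RANKL 72 h and LPS 72 h samples were above and LPS 4 h samples below every control sample. Efnb1 rose by 1.46 ± 0.28 (SE) on the log2 scale, adjusted p = 0.002, in RANKL 72 h. Efnb1 fell by 1.26 ± 0.28 (SE) on the log2 scale, adjusted p = 0.00169, in LPS 4 h, the latter lost on centring (-0.70, adjusted p = 0.0745), and its LPS 72 h difference was 0.63 ± 0.28 (SE), adjusted p = 0.0968. Efna2 had means of 0.0955 in control, 0.883 in RANKL 72 h and 0.303 in LPS 4 h. It rose by 2.34 ± 0.36 (SE) on the log2 scale, adjusted p = 0.00041, in RANKL 72 h. Efna2 rose by 1.06 ± 0.36 (SE) on the log2 scale, adjusted p = 0.0212, in LPS 4 h. This last call was lost without Control replicate 3, LPS 4 h replicate 2 or LPS 4 h replicate 3 (adjusted p 0.0555 to 0.105), with a pseudocount of 1 or 0.01 and with limma voom (adjusted p = 0.0524). Efnb2, the osteoclast ligand of EphB4, was at 0.192, 0.133 and 0.0457 in control and 0.954, 0.468 and 0.412 in RANKL 72 h, and rose by 1.65 ± 0.33 (SE) on the log2 scale, adjusted p = 0.0022. Efna1 and Efna4 were not called against control, with Efna1 at 1.17 ± 0.44 (SE), adjusted p = 0.0589, in RANKL 72 h, and -1.02 ± 0.44 (SE), adjusted p = 0.0589, in LPS 4 h, where it was called lower with the replicate number as a block (adjusted p = 0.0471).

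The Eph receptors summed to the lowest FPKM of the 5 families in every group but LPS 4 h, where they stood at 1.87 ± 0.455 (SD, n = 3) against 1.22 ± 0.234 for the ephrins. Epha2, the most abundant, was at 1.09, 1.23 and 0.875 FPKM in control, 1.17, 0.828 and 0.994 in RANKL 4 h and 1.45, 0.748 and 1.31 in RANKL 72 h. It was at 0.935, 1.26 and 0.35 in LPS 4 h and 1.17, 1.19 and 0.78 in LPS 72 h, the groups overlapping throughout, and its differences from control lay between -0.43 and 0.086 on the log2 scale with no call. Epha4 was at 0.0146, 0.00736 and 0.0392 in control and 0.551, 0.709 and 0.791 in LPS 4 h, from 2, 1 and 5 and from 72, 97 and 107 fragments. It rose by 2.70 ± 0.24 (SE) on the log2 scale, adjusted p = 9.17e-07, in LPS 4 h. Epha4 rose by 1.07 ± 0.24 (SE) on the log2 scale, adjusted p = 0.00479, in RANKL 72 h, from 23, 22 and 14 fragments. In LPS 72 h it rose by 0.70 ± 0.24 (SE) on the log2 scale, adjusted p = 0.0369, a call lost without Control replicate 1, Control replicate 2, LPS 4 h replicate 2, LPS 72 h replicate 1 or LPS 72 h replicate 2 (adjusted p 0.0511 to 0.129), with a pseudocount of 1, with samples rescaled to equal FPKM sums and with only the groups compared in the fit. Ephb3 rose by 1.13 ± 0.27 (SE) on the log2 scale, adjusted p = 0.0073, and Ephb6, a receptor without kinase activity, rose by 1.36 ± 0.25 (SE) on the log2 scale, adjusted p = 0.00148, both in RANKL 72 h. Ephb4, the receptor of ephrin-B2, was not called, with a difference of 0.69 ± 0.40 (SE), adjusted p = 0.204, in RANKL 72 h. Ephb3, Ephb6, Epha4, Efnb2 and Sema3a lost their RANKL 72 h calls with a pseudocount of 1, which flattens genes at these levels.

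The 3 RANKL 72 h samples differed among themselves in the marker lists and in the members. Osteoclast genes (10 genes) summed to 3168, 1721 and 5474 FPKM in replicates 1, 2 and 3, against 155 to 279.6 in control, and 9 of the 10 were highest in replicate 3 and 10 lowest in replicate 2. Of the 18 stromal genes, 10 were called higher in RANKL 72 h (3 relative to the median gene), 16 were highest in replicate 1 and 18 were lowest in replicate 3. Of all 32 members, 21 were highest in replicate 1, 2 in replicate 2 and 9 in replicate 3. Of the 15 members higher in RANKL 72 h, 8 were highest in replicate 3 (Efna2, Nrp2, Plxna2, Plxna4, Plxnb2, Plxnd1, Sema4d and Sema6b) and 7 in replicate 1 (Efnb1, Efnb2, Epha4, Ephb3, Ephb6, Sema3a and Sema7a). Of the same 15, 3 were lowest in replicate 1 (Nrp2, Plxnb2 and Sema6b), 8 in replicate 2 and 4 in replicate 3 (Efnb2, Epha4, Ephb3 and Sema3a). Without replicate 1, which had the highest stromal sum, 13 members were higher and 1 was lower, and without replicate 3, which had the highest osteoclast sum, 15 were higher and 1 was lower. The part of stromal cells in the values of replicate 1 was not tested.

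**Figure D4:**
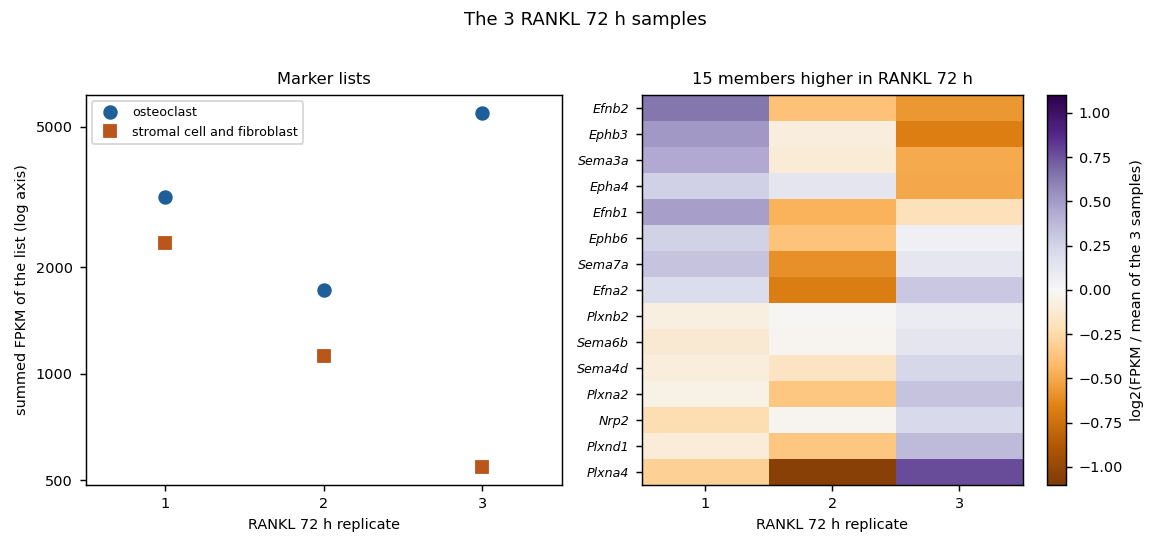
Left, summed FPKM (log axis) of 10 osteoclast and 18 stromal genes in RANKL 72 h replicates 1 to 3. Right, the 15 members higher in RANKL 72 h (rows) in the same samples (columns), as log2 of FPKM over the mean of the 3, purple for above and orange for below. The osteoclast sum is highest in replicate 3 and the stromal sum in replicate 1, and the members divide into 8 highest in replicate 3 and 7 highest in replicate 1.

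After 4 h of RANKL no member was called, where 0.111% of all genes tested were called higher and 0.00852% lower. With an unadjusted p, by limma, 0 members passed, against 2.56% of all genes, and limma voom on recovered fragments and the fit with a replicate block also called 0. The differences ran from -0.48 (Sema6b) to 0.63 (Efna2) on the log2 scale, with 16 members above 0 and 16 below.

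After 4 h of LPS, 5 members were called higher (Sema3c, Sema4c, Nrp2, Efna2 and Epha4) and 9 lower (Sema4b, Sema6b, Plxna1, Plxna3, Plxnb2, Plxnb3, Plxnc1, Nrp1 and Efnb1), against 8.43% and 39.7% of all genes. Of the 26 members past the minimum without their highest group, 4 were higher and 9 lower. This comparison leans on the scaling, since the median gene tested was itself lower by 0.52 on the log2 scale. The median difference of the 32 members was -0.44. Relative to the median gene, 9 members were higher and 3 lower, against 15.9% and 13% of all genes. The higher calls then took in Plxnd1, Sema4a, Sema4d and Sema7a, and only Nrp1, Sema4b and Sema6b stayed lower. The falls of 5 plexins and Efnb1 were hence called for FPKM as deposited and not relative to the median gene. A lost call does not show that a fall is absent. Sema4c, Epha4, Sema3c, Nrp2 and Efna2 were called higher both ways. Of these, Epha4 passed the minimum only through LPS 4 h. The Sema3c and Efna2 calls were lost without single libraries and with a pseudocount of 1.

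After 72 h of LPS, 3 members were called higher (Nrp2, Sema3c and Epha4) and 4 lower (Nrp1, Plxna4, Plxnc1 and Sema4d), against 13% and 14.4% of all genes, and centring left both counts as they were. The 4 falls were kept under every library left out. The higher calls went down to 1, Nrp2, without LPS 72 h replicate 2, and were 4 without LPS 72 h replicate 3, the library that stood apart. Plxna4 was at 16, 19 and 9 fragments in LPS 72 h.

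The direct comparison of the stimuli at 72 h has the same time in culture on both sides. In RANKL 72 h, 16 of 32 members were called higher than in LPS 72 h and 3 lower, against 23.3% and 12.8% of all genes. Of the 26 members past the minimum without their highest group, 13 were higher and 3 lower. The widest differences were those of Plxna4 (4.73 ± 0.34 (SE), adjusted p = 4.43e-07), Efna2 (2.70 ± 0.36 (SE), adjusted p = 4.78e-05), Sema7a (2.02 ± 0.37 (SE), adjusted p = 0.000646), Plxnd1 (2.01 ± 0.20 (SE), adjusted p = 4.61e-06), Ephb6 (1.94 ± 0.25 (SE), adjusted p = 3.7e-05) and Sema4d (1.78 ± 0.18 (SE), adjusted p = 4.02e-06). For Ephb6 the values came from 28, 19 and 25 fragments in RANKL 72 h against 0, 1 and 1 in LPS 72 h, so that its difference depends on the pseudocount. Ephb6 also passed the minimum only through RANKL 72 h. Plxnc1 (1.59 ± 0.30 (SE), adjusted p = 0.000805) was higher too, with a RANKL 72 h level near control and an LPS 72 h level below it. Lower in RANKL 72 h were Sema4b (-1.09 ± 0.20 (SE), adjusted p = 0.000574), Sema4c (-0.86 ± 0.32 (SE), adjusted p = 0.0387) and Sema4a (-0.71 ± 0.24 (SE), adjusted p = 0.0241), all of class 4, whereas Sema4d of the same class was higher.

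These counts depended on single libraries. Without RANKL 72 h replicate 1, 9 members were higher and 3 lower, and without LPS 72 h replicates 1, 2 or 3 the counts were 11 and 2, 12 and 2, and 14 and 1. Calls lost without RANKL 72 h replicate 1 included Efnb1, Efnb2, Nrp1, Plxna2, Plxna3, Sema3a and Sema6d, with adjusted p over all the omissions that removed a call of 0.0613 to 0.137, 0.0598 to 0.0782, 0.051 to 0.211, 0.0545 to 0.102, 0.0501 to 0.155, 0.0628 to 0.156 and 0.0707 to 0.155. Nrp2 (0.78 ± 0.23 (SE), adjusted p = 0.0119) was lost without RANKL 72 h replicate 3 (adjusted p = 0.0505), Sema4a without RANKL 72 h replicate 3, LPS 72 h replicate 1 or LPS 72 h replicate 3 (adjusted p 0.0534 to 0.115) and Sema4c without RANKL 72 h replicate 2, RANKL 72 h replicate 3, LPS 72 h replicate 2 or LPS 72 h replicate 3 (adjusted p 0.0706 to 0.114). Plxna4, Plxnd1, Plxnc1, Sema4b, Sema4d, Sema7a, Efna2, Ephb3 and Ephb6 kept their calls under every library left out. Ephb3 and Ephb6 passed the minimum only through RANKL 72 h. The minimum was always taken over all 15 samples, so leaving out a library does not test that choice. Centring left 11 higher and 3 lower.

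**Figure D5:**
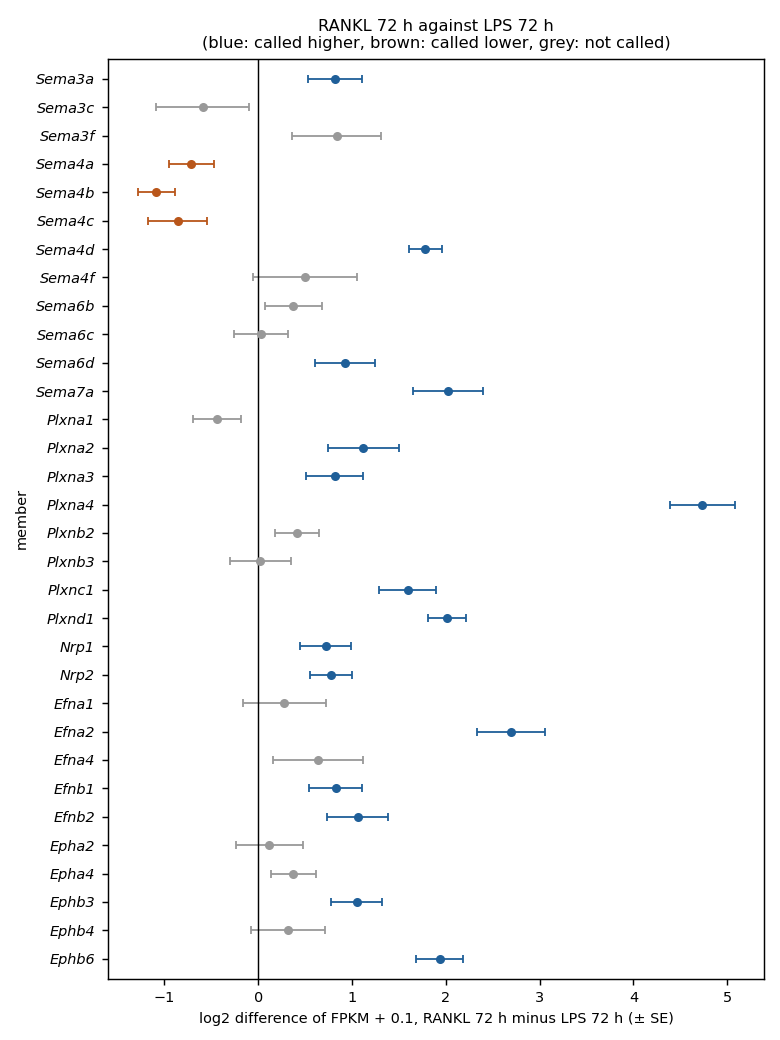
Log2 difference of FPKM + 0.1 between RANKL 72 h and LPS 72 h (horizontal axis, RANKL minus LPS, ± SE) for the 32 members (vertical axis), blue where called higher in RANKL 72 h, brown where called lower and grey where not called. There are 16 blue, 3 brown and 13 grey points, with Plxna4 farthest to the right at 4.73.

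At 4 h, 10 members were higher in RANKL than in LPS and 4 were lower, against 41% and 8.98% of all genes. The 4 lower were Sema4c, Epha4, Sema3c and Nrp2, each also called higher in LPS 4 h against control. The higher 10 were Efnb1, Nrp1, Plxna1, Plxna2, Plxna3, Plxnb2, Plxnc1, Sema4b, Sema6b and Sema6c, of which 4 remained higher on centring (Efnb1, Nrp1, Sema4b and Sema6b), while 6 members were then lower.

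Time was compared within each stimulus. Between 4 h and 72 h of RANKL, 12 members were higher at 72 h and 1 (Sema4b) lower, with 23.3% of all genes called in either direction. The 12 were Efna1, Efna2, Efnb1, Efnb2, Ephb3, Ephb6, Nrp2, Plxna3, Plxna4, Plxnd1, Sema3a and Sema6b. The call of Efna1 was lost in 10 of 15 omissions of a library (adjusted p 0.0506 to 0.176). That of Plxna3 was lost in 5 of 15 (adjusted p 0.0572 to 0.132). With the replicate number as a block 16 were higher and 1 lower, Ephb4, Plxnb2, Sema3c and Sema7a being added. Between 4 h and 72 h of LPS, 9 were higher at 72 h (Efna1, Efnb1, Plxna1, Plxna3, Plxnb2, Plxnb3, Sema4b, Sema6b and Sema6c) and 6 lower (Efna2, Epha4, Plxna4, Sema4c, Sema4d and Sema7a), with 58.1% of all genes called. Relative to the median gene the split under LPS was 5 higher and 11 lower, in place of 9 and 6. The time effect differed between the stimuli for 11 members, against 49% of all genes, being more positive under RANKL for Efna2, Epha4, Ephb6, Nrp2, Plxna4, Plxnd1, Sema4c, Sema4d and Sema7a and more negative for Plxna1 and Sema4b.

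The other genes of these pathways were taken from lists set by role. Of 38 partners and effectors of plexins and neuropilins, 37 were listed and 33 were tested. Tyrobp, the gene of DAP12, was not among the 33. In RANKL 72 h, 13 were higher and 1 (Kdr, a VEGF receptor that pairs with neuropilins) lower, against 16.6% and 7.54% of all genes, with a median difference of 0.56 beside 0.16 for all genes tested, and relative to the median gene 6 were higher and 3 lower. Mst1r, the RON receptor that associates with B-class plexins, rose by 6.96 ± 0.33 (SE), adjusted p = 7.94e-08, and Dpysl3, a CRMP protein of the semaphorin pathway, by 1.67 ± 0.38 (SE), adjusted p = 0.00544. Farp2, a guanine exchange factor of plexin-A signalling, rose by 1.23 ± 0.29 (SE), adjusted p = 0.00651, in RANKL 72 h and by 1.37 ± 0.29 (SE), adjusted p = 0.00267, in LPS 72 h. In LPS 4 h 3 of the 33 were higher and 11 lower, against 8.43% and 39.7% of all genes (median -0.44, all genes -0.52), which became 6 and 1 relative to the median gene. Rnd1, a small GTPase that binds plexins, rose by 6.04 ± 0.28 (SE), adjusted p = 3.73e-09, and Met, the partner of plexin-B receptors, by 2.44 ± 0.28 (SE), adjusted p = 8.51e-06. Trem2, the partner of plexin-A1, fell by 0.66 ± 0.18 (SE), adjusted p = 0.00591, in LPS 4 h, beside -0.52 for the median gene. It fell by 0.77 ± 0.18 (SE), adjusted p = 0.00445, in LPS 72 h. Its RANKL 72 h difference of -0.47 ± 0.18 (SE), adjusted p = 0.0583, was not called. In LPS 72 h 5 of the 33 were higher and 9 lower, against 13% and 14.4% of all genes (median -0.071, all genes 0.075). In RANKL 4 h none of the 33 was called.

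Of 26 partners and effectors of ephrins and Eph receptors, 22 were tested, and 5 were higher and 2 lower in RANKL 72 h (16.6% and 7.54% of all genes, list median 0.38). There were 3 higher and 8 lower in LPS 4 h (8.43% and 39.7% of all genes, list median -0.53, with 4 and 3 relative to the median gene), 2 higher and 3 lower in LPS 72 h (13% and 14.4% of all genes, list median -0.060) and none in RANKL 4 h. Src, the kinase that phosphorylates ephrin-B tails and is needed for osteoclast resorption, rose by 2.74 ± 0.32 (SE), adjusted p = 6.04e-05, in RANKL 72 h, by 3.77 ± 0.32 (SE), adjusted p = 6.42e-07, in LPS 4 h and by 1.56 ± 0.32 (SE), adjusted p = 0.00226, in LPS 72 h. Adam17, a membrane sheddase, rose by 0.95 ± 0.13 (SE), adjusted p = 0.000166, in RANKL 72 h and by 0.64 ± 0.13 (SE), adjusted p = 0.000773, in LPS 4 h. Nck2, an adaptor, fell in both stimuli, by 1.09 ± 0.14 (SE), adjusted p = 0.000106, in RANKL 72 h and by 1.33 ± 0.14 (SE), adjusted p = 1.93e-05, in LPS 72 h. In LPS 4 h it fell by 0.97 ± 0.14 (SE), adjusted p = 5.22e-05, beside -0.52 for the median gene. Of 16 other guidance genes (netrins, Slits, Robos and their relatives), 12 were tested: Neo1, a netrin receptor, rose by 1.25 ± 0.31 (SE), adjusted p = 0.00896, as the only call in RANKL 72 h, Flrt3 rose by 2.60 ± 0.41 (SE), adjusted p = 0.000115, as the only higher one of 5 calls in LPS 4 h (2 higher and 1 lower relative to the median gene), and LPS 72 h had 1 higher and 1 lower.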

How the data were processed

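RNA was measured by mRNA-seq in 15 samples of mouse BMDMs, 3 in each of 5 groups. The authors deposited 1 table of FPKM values, made with StringTie and Ballgown per the study's methods, on GRCm38.p4 (mm10) per the submitters' processing notes, and neither the versions nor the use of strand in counting are given in the sources used here. FPKM are scaled within a library, so a change in a few abundant genes moves the values of the others. One incomplete line at the end of the table was left out, and the names of all 5 families stand before it.

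The members and lists were chosen with earlier results of these data known. Values in every sample are given for members called against control in at least 1 group and with a group mean of at least 1 FPKM in at least 1 group, and for the highest member of each family. Group differences were fitted with limma 3.58.1 (R 4.3.3, with a trend in the prior variance) on log2(FPKM + 0.1) for the 11743 genes that averaged 0.1 FPKM or more, in 1 fit of the 5 groups, and p-values were adjusted over all of these genes by the Benjamini-Hochberg method. Every adjusted p printed comes from limma. The fit was tested on simulated data. Values of 3 samples against 3 that come from no fit were compared with a two-sided exact permutation test.

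The FPKM steps of each gene gave whole fragments for 14485 of 14485 genes above 0 in at least 3 samples (tolerance 0.01 fragments), which gave the depth and the fragments printed, and limma voom was run on them as an alternative. It called 2088 genes higher and 830 lower in RANKL 72 h. Fragments are not independent molecules, and their number covers counting error only.

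The labels number the replicates, and deviations from the group means (9486 genes) correlated between samples of the same number in control and RANKL 4 h (0.842, 0.707 and 0.743 for replicates 1, 2 and 3), control and LPS 4 h (0.624, 0.616 and 0.44) and control and RANKL 72 h (0.318, 0.136 and 0.184). Every correlation was over 0.1 in 6 of the 10 pairs of groups, none of them with LPS 72 h, so the numbers were taken to pair the samples outside LPS 72 h, from the data and not from a stated source. The alternatives were other pseudocounts, filters, scalings and fits, unadjusted p, a replicate block, and each sample left out in turn. Gene positions are from GENCODE M21 on GRCm38 and promoters from RefSeq on GRCm38.p6.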

Additional observations from a re-analysis of the deposited data

Results flagged for a closer look

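The time effect (72 h minus 4 h, on the log2 scale, by limma) was tested directly for a difference between RANKL and LPS. Of all 32 members, it was more positive under RANKL for 9 and more negative for 2, against 49% of all genes tested in either direction. It differed for 8 of the 15 members given by sample. Of these 15, 14 were picked for a call against control in these data, so their share cannot be set beside that of all genes. It was more positive under RANKL by 4.55 for Plxna4, by 2.27 for Sema7a, by 1.95 for Sema4c, by 1.83 for Plxnd1, by 1.81 for Sema4d and by 1.68 for Nrp2. It was more negative under RANKL for Sema4b, at -2.37, and for Plxna1, at -1.43. For Sema4c this came with nearly level values under RANKL and a fall from 4 h to 72 h under LPS, and for Plxna4 with a rise under RANKL and a fall under LPS.

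The RANKL effect against the common control was larger at 72 h than at 4 h for Plxna4, by 3.36, for Sema6b, by 1.45, for Plxnd1, by 1.45, for Nrp2, by 1.38 and for Efnb1, by 1.26, and lower for Sema4b, at -1.08. These 6 differences are the direct comparisons of the RANKL groups, so the control does not enter them. Of all genes tested, 23.3% were called in that comparison in either direction.

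The LPS effect was higher at 72 h than at 4 h for Sema6b, by 2.44, for Efnb1, by 1.90, for Plxna1, by 1.30, for Sema4b, by 1.29 and for Plxnb2, by 1.20. It was lower at 72 h for Sema4c, at -2.04, for Sema7a, at -1.32, for Sema4d, at -1.23 and for Plxna4, at -1.19. Between the LPS times, 58.1% of all genes tested were called in either direction. Relative to the median gene Plxnb2 was no longer called here, and Nrp2, Plxnc1, Plxnd1 and Sema4a were then lower at 72 h.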

How the results depend on the processing

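Of 90 gene differences computed for the members given by sample, 46 were called, 29 kept the call under every alternative run, 17 lost it under at least 1 and none changed sign. Centring removed 11 of the calls. Other counts changed as follows. Members higher in RANKL 72 h went from 15 to 9 with a mean of at least 1 FPKM, and members lower from 2 to 1 with samples rescaled to equal FPKM sums. Members higher in LPS 4 h went from 5 to 3 with a pseudocount of 1, to 2 with a mean of at least 1 FPKM and to 9 on centring, and members lower from 9 to 3 on centring. Members higher in LPS 72 h went from 3 to 1 with a pseudocount of 1 or a mean of at least 1 FPKM and to 6 with an unadjusted p. Members that differed between RANKL 72 h and LPS 72 h went from 19 to 12 with a pseudocount of 1, with a mean of at least 1 FPKM or with only these groups fitted. Between the RANKL times the count went from 13 to 7, 6 and 20 with a pseudocount of 1, a mean of at least 1 FPKM and an unadjusted p, and between the LPS times from 15 to 9 with a pseudocount of 1 and to 9 with a mean of at least 1 FPKM. The stricter filter tests fewer members. The cause of the other changes was not tested.

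With samples left out in turn, the count was 13 to 16 higher and 1 to 2 lower in RANKL 72 h, 4 to 6 and 7 to 10 in LPS 4 h, 1 to 4 and 4 to 4 in LPS 72 h, and 0 in RANKL 4 h. It was 12 to 19 between the stimuli at 72 h and 12 to 15 at 4 h, 12 to 17 between the RANKL times, 14 to 16 between the LPS times and 11 to 13 for the difference in time effect.

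With the replicate block the counts were 17 higher and 2 lower in RANKL 72 h, 6 and 10 in LPS 4 h, 4 and 4 in LPS 72 h and 0 in RANKL 4 h. They were 14 and 19 between the stimuli at 4 h and 72 h, 17 and 16 between the times of RANKL and of LPS, and 12 for the difference in time effect. The block removed no call of a member given by sample. In comparisons with LPS 72 h the samples share only a number (correlations of -0.135, -0.0214 and -0.229 with RANKL 72 h), and the added call there was Plxna1 against control (adjusted p = 0.0262). Depth limits members at a few fragments per library, such as Epha4 and Ephb6.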
